A study of Mus musculus with 24 samples.

Results

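Genes of glycolysis and of the response to low oxygen were followed through 4 days of undirected differentiation of male mouse embryonic stem cells (mESCs) in which a subunit of the BAF nucleosome remodelling complex was depleted. The 36 genes were taken by symbol from a list that was drawn up with earlier results of these data known, and each was matched to 1 of the 25965 entries of the expression table. They comprise 2 glucose transporters, 15 glycolysis enzymes, 2 regulators of glycolytic flux, 6 genes that handle lactate and pyruvate and 11 genes of the hypoxia response. All 36 passed the filter on low values, a mean log2 rpm of at least 0, where rpm is the read count scaled to the size of the library.

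Every culture came from male C57/Bl6 mESCs, was moved from 2i medium with LIF into serum-containing medium without LIF, received a retroviral short hairpin RNA (shRNA) and was selected with puromycin before the first library was made, the control cultures included. The control was the nonsilencing hairpin Nons, here 1 library on each of days 4, 5, 6 and 7. *Smarcc1* was knocked down with the hairpins Smarcc1.6 and Smarcc1.7 and *Smarca4* with Smarca4.4 and Smarca4.6, each with 1 library per day, which gave 8 libraries per knockdown and 20 in all. The mESCs had been kept at reduced oxygen before differentiation, and the oxygen level during differentiation is not stated separately in the methods.

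Glycolysis splits glucose into pyruvate in the cytosol, and lactate dehydrogenase turns pyruvate into lactate when it is not burned in mitochondria. Under low oxygen the transcription factor HIF-1, a dimer of *Hif1a* and *Arnt*, is no longer hydroxylated by the Egln dioxygenases and marked for degradation by *Vhl*, and it activates most genes of this pathway together with genes of blood vessel growth, collagen modification and mitophagy. Pluripotent cells are known for a high glycolytic flux that is remodelled when they differentiate.

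The guides of the 4 hairpins are shown because they define the groups that are compared. They are antisense to the target transcript, as DNA letters, 5′ to 3′, with bases 2 to 8, the seed, in capitals.
Smarcc1.6: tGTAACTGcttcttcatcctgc
Smarcc1.7: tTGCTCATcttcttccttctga
Smarca4.4: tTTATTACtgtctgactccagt
Smarca4.6: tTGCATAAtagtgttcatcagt
The targeted transcripts were lower than in the Nons library of the same day in all 16 libraries that should show it. *Smarcc1* stood at 23.7 to 60.1% of Nons in its 8 libraries (median 41.8%) and *Smarca4* at 21.6 to 55.3% in its own (median 26.7%). The log2 changes were -1.33 ± 0.21 (SE, adjusted p = 0.00115) and -1.79 ± 0.29 (SE, adjusted p = 0.00277).

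Library totals ranged from 6829596 to 27472885 reads, so 3 reads, the smallest number taken as different from none, were worth 0.109 to 0.439 rpm. The smallest library was that of Smarca4.4 on day 5. The summed level of 7 pluripotency markers was 2402 to 2906 rpm in the 5 libraries of day 4 and 653 to 1331 rpm in those of day 7, while 3 neural markers went from 26.0 to 36.5 rpm to 84.9 to 125 rpm and 5 fibroblast markers from 6.66 to 12.1 rpm to 25.1 to 117 rpm. The 4 epiblast markers summed to 1093 to 1606 rpm and then 268 to 435 rpm. The 3 primitive streak markers summed to 7.71 to 11.6 rpm and then 4.74 to 13.5 rpm, and the 4 endoderm markers stayed at or below 10.1 rpm. The 3 endothelium markers summed to 52.6 to 70.0 rpm and then 3.57 to 30.7 rpm. This sum mainly followed *Pecam1* (median 33.3 rpm over 20 libraries). *Cdh5* and *Kdr* had medians of 0.0957 and 0.298 rpm and were too low to be tested. The 3 blood markers stayed at or below 0.555 rpm in every library, and 2 of them had no read on days 6 and 7. In bulk RNA, fewer cells of a type and less RNA per cell cannot be told apart, and the part of the change in cell types in the results below was not tested. The p-values come from limma fitted to 13296 genes with Benjamini-Hochberg adjustment, called at 0.05. The sources do not say whether libraries came from separate cultures, so the p-values measure the spread between hairpins of the same gene and day.

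The members spanned a wide range of levels. Per kilobase of transcript, *Ldha* (1705 rpm per kb), *Aldoa* (1536), *Eno1* (1367) and *Pgk1* (1196) were the most abundant on average over 20 libraries. The lowest were *Car9* (0.764 rpm per kb), *Pfkfb4* (0.809) and *Eno2* (1.74), which were counted from as few as 5, 20 and 11 reads. Together the 36 genes took 1.12 to 1.47% of the reads of a library on day 4 and 1.5 to 2.59% on days 5 to 7. *Gapdh*, often used as a constant reference, was listed at 138 rpm per kb. *Gapdh*, *Eno1*, *Pgk1*, *Ldha*, *Aldoa*, *Tpi1* and *Pgam1* have near-identical processed copies elsewhere in the genome, so their levels, and comparisons of levels between genes, are uncertain. *Bnip3* and *Ankrd37* share 22.3% and 22.7% of their exonic bases with a gene on the opposite strand, and it is not stated whether counting used strand.

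**Figure D1:**
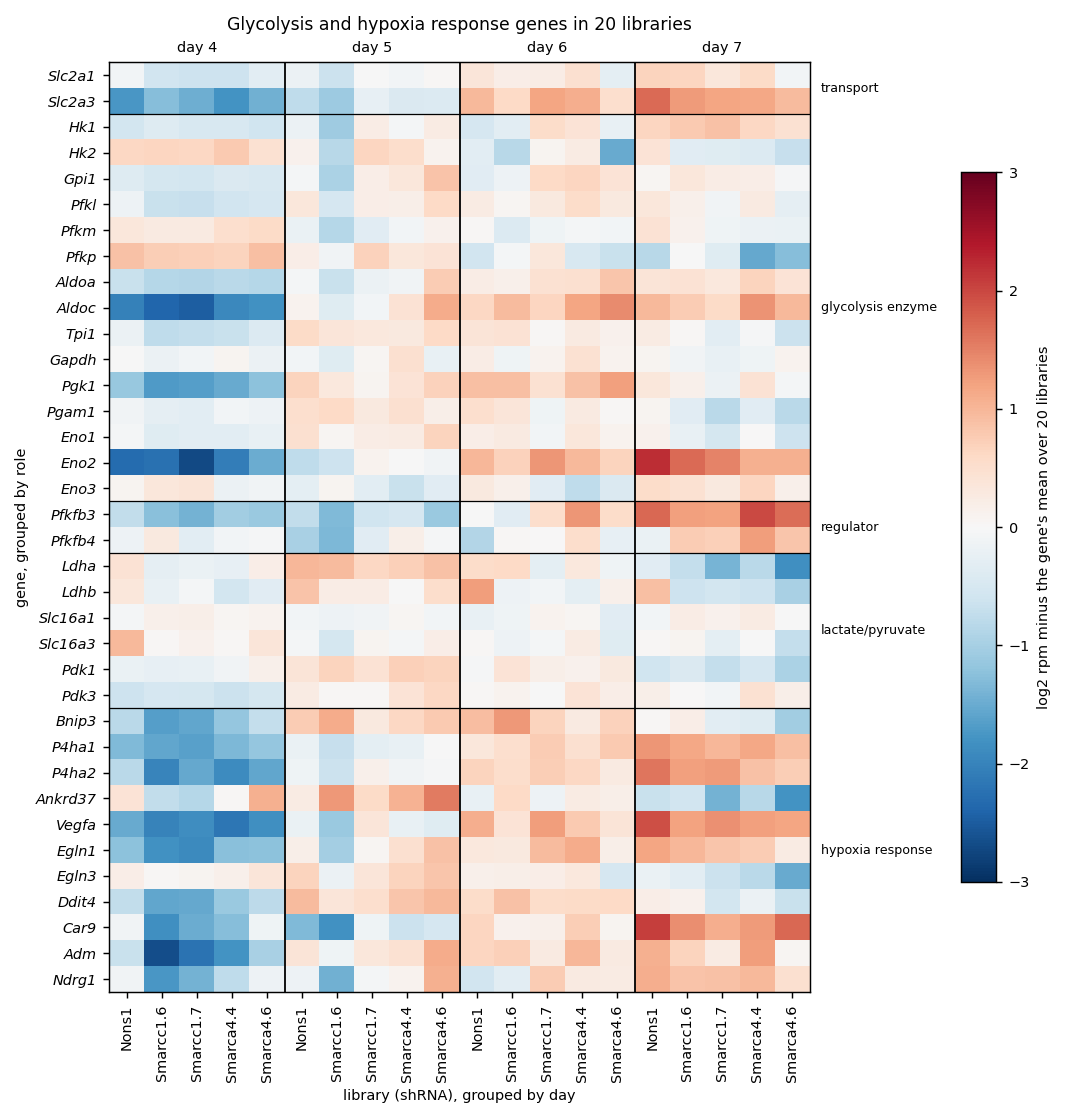
Each row is 1 of the 36 genes, grouped by role, and each column 1 of the 20 libraries, grouped by day. Colour is the log2 rpm minus the mean of that gene over the 20 libraries. *Slc2a3*, *Aldoc*, *Eno2*, *P4ha1*, *P4ha2* and *Vegfa* go from blue on day 4 to red on day 7 in every shRNA, whereas *Ldha*, *Pdk1* and *Ankrd37* are highest on day 5 in most columns and lowest on day 7.

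The first comparison asks how the genes changed as the cells differentiated, averaged over Nons and both knockdowns. From day 4 to day 7, 21 of 36 members rose and 6 fell, against 35.7% of all 13296 genes that rose and 28.8% that fell (64.5% called in all). The median log2 change of the members was 0.67 and that of all genes 0.08. In 18 members the 5 libraries of day 7 all lay above the 5 of day 4, and in 5 members all lay below. Over all genes these shares were 35% and 28.2%. With the knockdown libraries alone, 22 members rose and 8 fell, 21 and 5 of them shared with the fit on all libraries. *Slc16a3* was lost there, and *Pfkfb4* (higher) and *Hk2*, *Ldhb* and *Pfkm* (lower) were gained. Fewer members rose when Smarcc1.6 or either *Smarca4* hairpin was left out, which left 1 library a day for that target. Shares of all genes in these alternative fits are not given. The 6 that fell were the phosphofructokinase isoform *Pfkp*, *Ldha*, the lactate exporter *Slc16a3*, the kinase *Pdk1*, and *Ankrd37* and *Egln3* of the hypoxia response.

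More members were called in the first daily step than in either later one. Between day 4 and day 5, 20 members rose and 2 fell (all genes: 19.5% rose and 19.2% fell, 38.7% called), with a median of 0.63 against -0.03 for all genes. Here too fewer rose when either *Smarca4* hairpin was left out. Between day 5 and day 6, 8 rose and 2 fell (17% and 15.3% of all genes, 32.3% called). Without Smarca4.4 these counts were 5 and 1. Between day 6 and day 7, 9 rose and 9 fell (16.9% and 10.6%, 27.5% called). This last step depended most on the libraries, though no share of all genes is given for the fits that follow. A fit without a hairpin also has fewer residual degrees of freedom. It gave 1 rise and 8 falls without Smarca4.4, 2 rises and 3 falls without Smarca4.6, and 2 rises and 10 falls in the knockdown libraries alone, in which *Car9*, *Eno2*, *Hk1*, *Ndrg1*, *P4ha1*, *P4ha2* and *Pfkfb4* were no longer called. When each library was centred on its median gene, the last step had 4 rises and 12 falls and the change from day 4 to day 7 had 19 rises and 8 falls.

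The mean level over the 5 libraries of a day was highest on day 7 for 16 members, on day 5 for 10, on day 6 for 6 and on day 4 for 4. Thus 16 members were highest at the end of the course, and as many had their highest mean on day 5 or 6. For some of the latter the days hardly differed. *Gapdh* was at 217 and 187 rpm and *Aldoc* at 63.9 and 61.6 rpm on days 6 and 7, with overlapping libraries. Highest days were not counted over all genes.

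**Figure D2:**
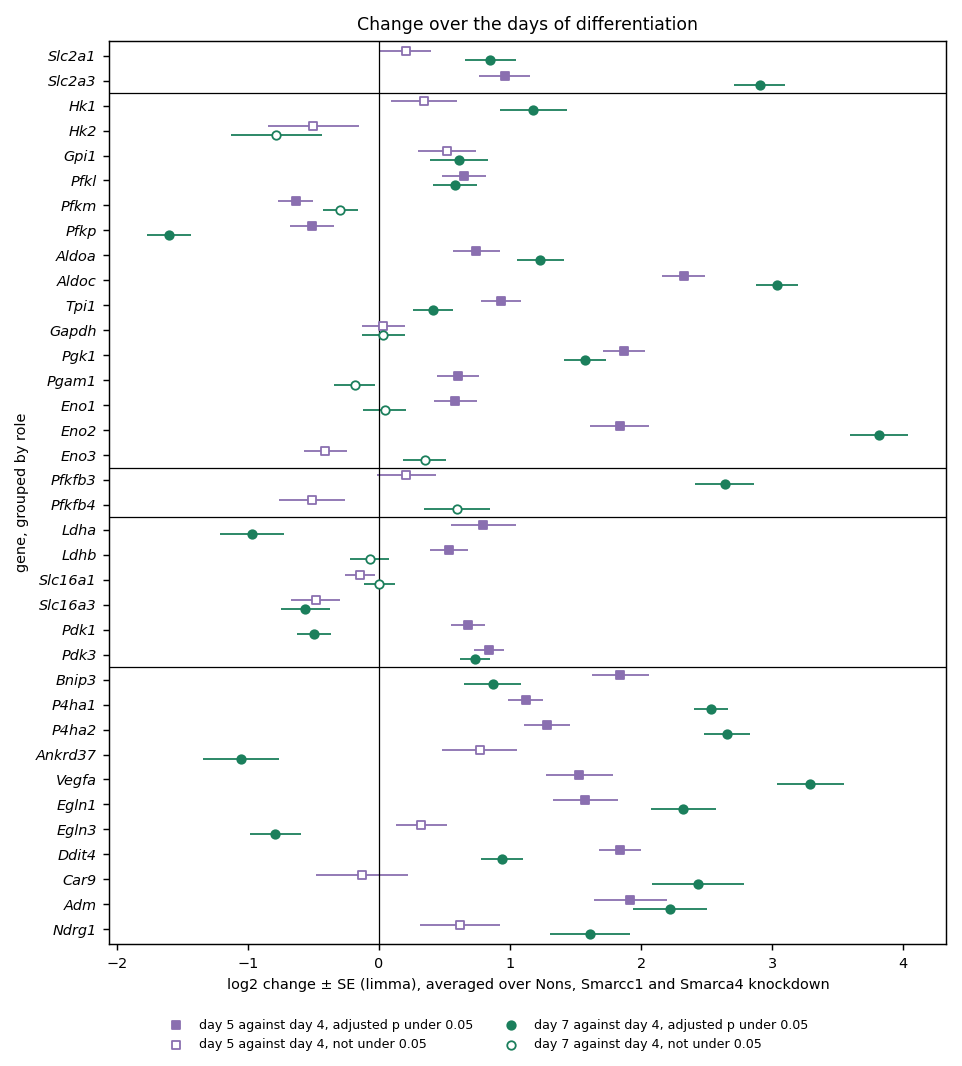
Log2 change ± SE of each member from day 4 to day 5 (squares) and from day 4 to day 7 (circles), from limma, averaged over the 3 groups. Filled symbols have an adjusted p under 0.05. *Eno2*, *Vegfa*, *Aldoc* and *Slc2a3* lie farthest to the right on day 7, and for *Ldha* and *Pdk1* the square lies right of 0 and the circle left of it.

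Both glucose transporters rose. *Slc2a3* (GLUT3, the high-affinity transporter, chr6:122727809-122801640 in mm10) was at 373 rpm in Nons, 518 and 455 in Smarcc1.6 and Smarcc1.7, and 361 and 460.3 in Smarca4.4 and Smarca4.6 on day 4. On day 7 the same series were at 4079, 3025, 2850.4, 2779 and 2411 rpm. The lowest library of day 7 was thus far above the highest of day 4, and days 4, 5 (585 to 1047 rpm) and 6 (1786 to 2853 rpm) did not overlap each other, while days 6 and 7 did. The log2 change from day 4 to day 7 was 2.91 ± 0.19 (SE, adjusted p = 5.75e-08, limma). *Slc2a1* (GLUT1, the common basal transporter) went from 736 ± 124 to 1354 ± 267 rpm (SD, n = 5), a log2 change of 0.85 ± 0.19 (SE, adjusted p = 0.00188). Per kilobase, *Slc2a3* made up 32.9 ± 5.5% of the sum of both transporters on day 4 and 64.8 ± 3.5% on day 7 (SD, n = 5), so that the transporter with the higher level changed from *Slc2a1* to *Slc2a3* between day 5 and day 6 in every series.

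Of the 15 enzymes 8 rose and 1 fell by day 7 (all genes: 35.7% rose and 28.8% fell, 64.5% called), a share called near that of all genes. In the first steps of the pathway the isoforms of a family took different courses. *Hk1*, the hexokinase of most adult tissues, rose from 17.4 ± 0.9 to 39.5 ± 4.5 rpm (SD, n = 5, log2 change 1.18, adjusted p = 0.0012, limma), and *Hk2*, the inducible form, was at 231 ± 19 and 128 ± 42 rpm (log2 change -0.78, adjusted p = 0.0661). *Hk1* supplied 8.87 ± 0.51% of the hexokinase level per kilobase on day 4 and 29.4 ± 5.5% on day 7 (SD, n = 5). On day 7 the *Hk1* share of Nons stood apart at 19.9%, against 30.2 to 33.4% in the 4 knockdown libraries, with *Hk2* at 200 rpm in Nons and 92.2 to 119 rpm in the others. *Gpi1*, which turns glucose 6-phosphate into fructose 6-phosphate, had a log2 change of 0.61 (adjusted p = 0.0281), which was not called without Smarca4.4 (adjusted p = 0.13), without Smarca4.6 (0.0984) or after centring (0.0654).

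Phosphofructokinase commits the sugar to glycolysis. Its isoform *Pfkp* fell in every series, from 204 to 240.2 rpm on day 4 to 72.3 rpm in Nons, 128 and 99.8 in the *Smarcc1* hairpins and 44.6 and 52.7 in the *Smarca4* hairpins on day 7. The log2 change was -1.60 ± 0.16 (SE, adjusted p = 2.59e-06, limma). *Pfkl*, the liver-type isoform, rose by 0.58 ± 0.17 (SE, adjusted p = 0.00939), though not without Smarca4.4 (adjusted p = 0.067), and *Pfkm*, the muscle-type isoform, fell between day 4 and day 5 (log2 change -0.64 ± 0.13, SE, adjusted p = 0.00269). The share of *Pfkp* in the phosphofructokinase level per kilobase went from 30.5 ± 1.9% to 10.2 ± 4.1% (SD, n = 5) and that of *Pfkl* from 56.9 ± 2.9% to 80.7 ± 4.3%.

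Further along the pathway, the brain-type isoforms *Aldoc* and *Eno2* rose steeply from low levels. *Aldoc* was at 5.80 to 9.06 rpm on day 4 and at 62.3, 54.6, 47.8, 81.2 and 62.3 rpm in Nons, Smarcc1.6, Smarcc1.7, Smarca4.4 and Smarca4.6 on day 7 (log2 change 3.04 ± 0.16, SE, adjusted p = 9.36e-09, limma). *Eno2* went from 0.498 to 1.15 rpm on day 4 to 15.1, 10.5, 9.17, 6.77 and 6.82 rpm on day 7, the largest rise of any member (log2 change 3.81 ± 0.22, SE, adjusted p = 2.12e-08). Neither came near the level of the main isoform: *Aldoc* was 1.12 ± 0.13% of the aldolase level per kilobase on day 7 and *Eno2* 0.295 ± 0.075% of that of enolase (SD, n = 5). *Aldoa*, the main aldolase, rose as well, from 1252 ± 76 to 3011 ± 288 rpm (log2 change 1.23 ± 0.18, SE, adjusted p = 5.84e-05).

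Several enzymes were highest on day 5 or 6. *Pgk1*, the first ATP-forming enzyme (chrX:106187100-106203699), was at 839 rpm in Nons, 572 and 585 in the *Smarcc1* hairpins and 652 and 787 in the *Smarca4* hairpins on day 4. On day 6 it was at 3456, 3466, 2557, 3414 and 4356 rpm in the same order, the highest day of each series, and on day 7 at 2349, 2049, 1640.0, 2518 and 1782 rpm. The groups of day 4, 6 and 7 did not overlap. The log2 change was 1.87 ± 0.16 from day 4 to day 5 (SE, adjusted p = 6.11e-06, limma) and -0.71 ± 0.16 from day 6 to day 7 (adjusted p = 0.00814). *Tpi1*, the triose phosphate isomerase, *Pgam1*, the phosphoglycerate mutase, and *Eno1*, the main enolase, also rose by day 5 (log2 changes 0.93, 0.60 and 0.58, adjusted p = 0.000558, 0.0101 and 0.0149). On day 7 *Pgam1* and *Eno1* had log2 changes of -0.18 and 0.04 against day 4 and were not called. *Tpi1* was called at day 7 (log2 change 0.41, adjusted p = 0.0306), but not without Smarcc1.6 (0.123), without Smarca4.4 (0.175) or after centring (0.249). *Gapdh* had a log2 change of 0.03 ± 0.16 (SE, adjusted p = 0.867), with 184 ± 14 rpm on day 4 and 187 ± 18 on day 7. *Eno3*, the muscle-type enolase, was at 33.5 ± 5.9 and 41.7 ± 5.6 rpm (adjusted p = 0.0761).

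**Figure D3:**
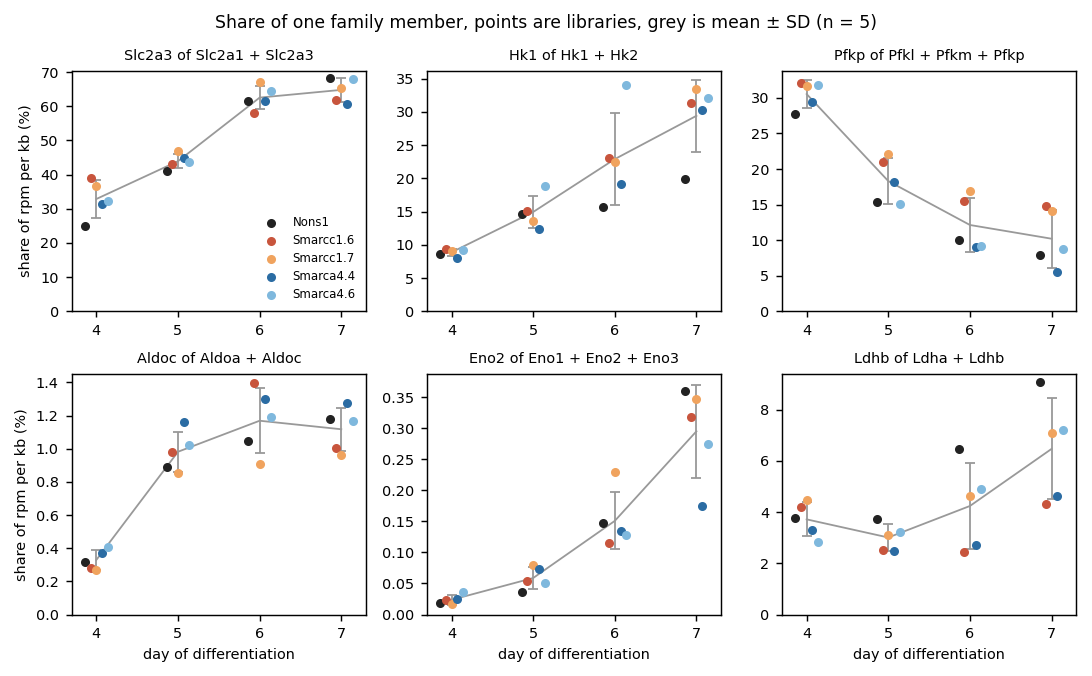
Share of 1 isoform in the summed rpm per kilobase of its family, by day. Points are the 20 libraries coloured by shRNA, and the grey line and bars give the mean ± SD of the 5 libraries of a day. The share of *Slc2a3* rises from 32.9 to 64.8%, that of *Hk1* from 8.87 to 29.4% and that of *Pfkp* falls from 30.5 to 10.2%, while *Aldoc*, *Eno2* and *Ldhb* stay under 10% in every library.

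The regulators *Pfkfb3* and *Pfkfb4* make fructose 2,6-bisphosphate, the activator of phosphofructokinase. *Pfkfb3* changed late: it was at 30.2 to 48.7 rpm on day 4 and 32.3 to 57.0 on day 5, then at 266 rpm in Nons, 189 and 187 in the *Smarcc1* hairpins and 317 and 259 in the *Smarca4* hairpins on day 7. Its log2 change was 0.21 from day 4 to day 5 (adjusted p = 0.478), 1.18 ± 0.22 in the next step (SE, adjusted p = 0.0018) and 1.24 ± 0.22 in the last (adjusted p = 0.00259, limma). *Pfkfb4* was low throughout, at 1.02 to 6.13 rpm, and had a log2 change of 0.60 from day 4 to day 7 (adjusted p = 0.0529), which was called in the knockdown libraries alone (0.92, adjusted p = 0.00847).

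The genes that handle lactate and pyruvate did not follow the transporters. *Ldha*, the subunit of lactate dehydrogenase that dominates in hypoxic and proliferating cells (chr7:46841475-46855627), was at 3717 rpm in Nons, 2273 and 2377 in the *Smarcc1* hairpins and 2325 and 3148 in the *Smarca4* hairpins on day 4. On day 5 it stood at 5443, 5289.9, 4204, 4517 and 5051 rpm in the same order, its highest day in all 5 series. On day 7 it stood at 2178, 1667, 1042, 1554 and 765 rpm, below each library of day 4. The log2 change was 0.80 ± 0.24 from day 4 to day 5 (SE, adjusted p = 0.0224, limma) and -0.97 ± 0.24 from day 4 to day 7 (adjusted p = 0.00377). *Pdk1*, which blocks the entry of pyruvate into the citric acid cycle, had the same course, with 262 ± 31, 425 ± 43, 327 ± 38 and 184 ± 25 rpm on days 4 to 7 (SD, n = 5) and its highest day on day 5 in all 5 series. Its day 7 level was lower than on day 4 (log2 change -0.49 ± 0.13, SE, adjusted p = 0.00486), not called without Smarca4.6 (adjusted p = 0.0537). *Pdk3*, another kinase of this family, rose by day 5 and stayed up (33.6 ± 1.5 rpm on day 4 and 55.6 ± 8.2 on day 7, log2 change 0.73, adjusted p = 0.000101).

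*Slc16a3* (MCT4), the lactate exporter of glycolytic cells, was at 426 ± 133 rpm on day 4, where Nons had 656 rpm and the knockdown libraries 341 to 429, and at 300.1 ± 62.3 rpm on day 7. The fall (log2 change -0.56, adjusted p = 0.0191, limma) was not called without the Nons libraries (-0.37, adjusted p = 0.121), without Smarcc1.7 (0.0715) or without Smarca4.6 (0.101). *Slc16a1* (MCT1) was nearly level at 263 ± 16 and 266 ± 26 rpm (adjusted p = 0.985).

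**Figure D4:**
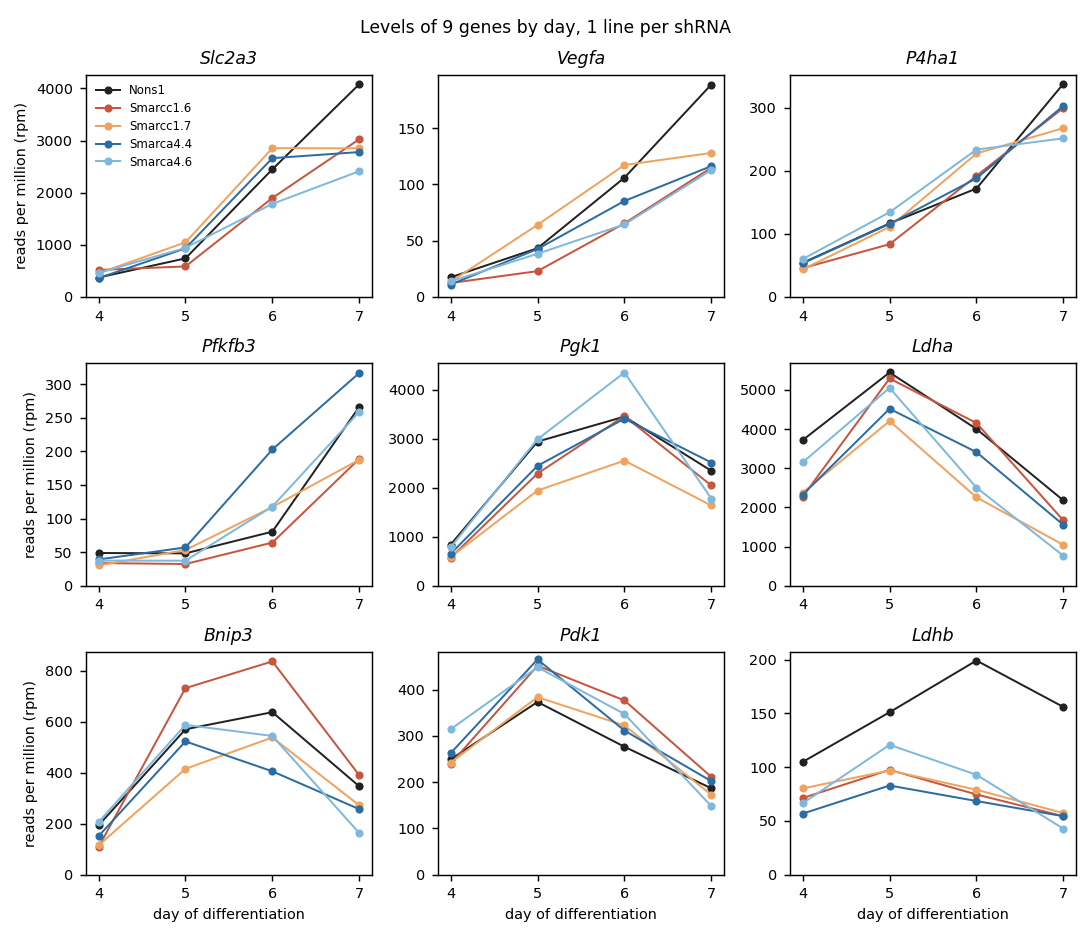
Level in rpm on days 4 to 7 for 9 members, with 1 line per shRNA and both axes linear. *Slc2a3*, *Vegfa*, *P4ha1* and *Pfkfb3* are highest on day 7, except for *Slc2a3* in Smarcc1.7, which is level from day 6, and *Pgk1* is highest on day 6, *Ldha* and *Pdk1* on day 5 and *Bnip3* on day 5 or 6 in each line. In the panel of *Ldhb* the Nons line, at 105 to 199 rpm, lies above the 4 knockdown lines on all 4 days.

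All 11 genes of the hypoxia response were called between day 4 and day 7, 9 higher and 2 lower (all genes: 64.5% called, 35.7% higher and 28.8% lower), and they fell into the same courses. *Vegfa*, the main growth factor of blood vessels (chr17:46016993-46032377), was at 17.5 rpm in Nons, 12.4 and 13.5 in the *Smarcc1* hairpins and 11.1 and 13.8 in the *Smarca4* hairpins on day 4. On day 7 it was at 189, 115, 128, 116 and 113 rpm in the same order, and every series was higher at each step. The log2 change was 3.29 ± 0.26 (SE, adjusted p = 2.3e-07, limma). *P4ha1* and *P4ha2*, the catalytic subunits of collagen prolyl hydroxylase, climbed in every series too, from 51.4 ± 6.7 to 292 ± 34 rpm and from 8.28 ± 3.01 to 52.7 ± 12.4 rpm (SD, n = 5, log2 changes 2.53 and 2.65). *Egln1* (PHD2), the main oxygen sensor that hydroxylates *Hif1a*, rose from 12.2 to 19.5 rpm on day 4 to 54.8 to 105 rpm on day 7 (log2 change 2.32 ± 0.25, SE, adjusted p = 3.57e-06).

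*Adm*, the vasodilator peptide adrenomedullin, made its rise by day 5 (5.84 ± 3.25 to 22.7 ± 7.4 rpm, log2 change 1.92, adjusted p = 0.000264, limma) and was at 26.8 ± 9.2 rpm on day 7. *Ndrg1*, a stress-induced gene of differentiating cells, went from 18 ± 8.5 to 53.4 ± 8.0 rpm by day 7 (log2 change 1.61, adjusted p = 0.000477). *Car9*, a cell surface carbonic anhydrase and common hypoxia marker, was near the limit of these libraries at 0.319 to 1.06 rpm on day 4 and reached 2.43 to 4.80 rpm on day 7 (log2 change 2.44 ± 0.35, SE, adjusted p = 5.12e-05).

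*Bnip3*, *Ddit4*, *Ankrd37* and *Egln3* had their highest mean on day 5 or 6. *Bnip3*, a mitophagy receptor, was at 193, 108, 114, 151 and 206 rpm in Nons, Smarcc1.6, Smarcc1.7, Smarca4.4 and Smarca4.6 on day 4 and at 570.1, 732, 415, 523 and 587 rpm on day 5. It was back at 346, 389.8, 271, 257 and 163 rpm on day 7. The rise by day 5 (log2 change 1.84 ± 0.22, SE, adjusted p = 6.08e-05, limma) and the fall from day 6 to day 7 (-1.04 ± 0.22, SE, adjusted p = 0.00547) were both called. Against day 4 the day 7 level was higher by 0.87 on the log2 scale (adjusted p = 0.00344), not called without Smarca4.4 (0.0506). *Ddit4* (REDD1), which restrains mTORC1, had 237 ± 63, 850.2 ± 154, 789.8 ± 80 and 452 ± 121 rpm on days 4 to 7, with changes of 1.84 by day 5 (adjusted p = 6.93e-06) and -0.76 in the last step (adjusted p = 0.00576). *Ankrd37* and *Egln3* (PHD3), both direct HIF targets, ended below their day 4 level, with log2 changes of -1.05 (adjusted p = 0.00609) and -0.79 (adjusted p = 0.00299). The call of *Ankrd37* was lost without Smarca4.6 (adjusted p = 0.0691). Its level by day 5 was not called different from day 4 (log2 change 0.77, adjusted p = 0.0506), and in Nons it was highest on day 4, at 40.4, 36.1, 26.1 and 19.1 rpm on days 4 to 7.

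Members of 1 family could differ in course, as *Egln1* and *Egln3* or *Pdk1* and *Pdk3* did. Other genes of the pathway were taken from 3 further lists. Of 15 regulators of HIF, 3 rose and 4 fell from day 4 to day 7, when 35.7% of all genes rose and 28.8% fell. *Hif1a* itself had its highest level on day 4, with 191 rpm in Nons, 255 and 249.8 in the *Smarcc1* hairpins and 245 and 221 in the *Smarca4* hairpins, and fell by day 5 (log2 change -1.08 ± 0.16, SE, adjusted p = 0.000238, limma), when 20 members rose. On day 7 it was at 136, 125, 138, 120.4 and 140.4 rpm. *Vhl*, the ubiquitin ligase subunit that recognises hydroxylated *Hif1a*, rose by 0.89 ± 0.17 (SE, adjusted p = 0.000623) from day 4 to day 7. HIF is regulated mainly through protein stability, which was not measured. Of 28 other HIF target genes tested of 30, 18 rose and 4 fell (median log2 change 0.64). Of 20 other glycolysis and pyruvate genes tested of 28, 7 rose and 3 fell (median 0.10), against the same 35.7% and 28.8% of all genes, so the share that rose was near that of all genes. Among the latter *Pkm*, the pyruvate kinase of these cells, was the most abundant at 2186 to 4743 rpm and was not called (log2 change -0.30, adjusted p = 0.131).

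The promoters of *Pgk1*, *Ldha*, *Bnip3* and *Vegfa* are shown because they hold different numbers of the HIF core motif. Each is the 250 bases before the start of the RefSeq gene, from RefSeq on GRCm38.p6, 5′ to 3′ on the strand of the gene. Capitals mark ACGTG or GCGTG on either strand, which read CACGT or CACGC on the other, and overlapping matches are merged.
*Pgk1*, chrX:106186850-106187099, plus strand: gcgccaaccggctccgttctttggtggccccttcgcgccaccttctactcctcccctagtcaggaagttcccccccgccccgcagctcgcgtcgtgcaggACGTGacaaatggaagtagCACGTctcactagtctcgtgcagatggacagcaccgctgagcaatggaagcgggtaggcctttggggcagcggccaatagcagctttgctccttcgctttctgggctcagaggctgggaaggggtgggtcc
*Ldha*, chr7:46845554-46845803, plus strand: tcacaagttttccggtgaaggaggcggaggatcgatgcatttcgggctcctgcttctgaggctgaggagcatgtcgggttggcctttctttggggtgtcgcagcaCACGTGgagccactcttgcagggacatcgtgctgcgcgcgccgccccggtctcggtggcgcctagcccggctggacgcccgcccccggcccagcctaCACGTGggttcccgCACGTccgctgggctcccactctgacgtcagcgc
*Bnip3*, chr7:138909507-138909756, minus strand: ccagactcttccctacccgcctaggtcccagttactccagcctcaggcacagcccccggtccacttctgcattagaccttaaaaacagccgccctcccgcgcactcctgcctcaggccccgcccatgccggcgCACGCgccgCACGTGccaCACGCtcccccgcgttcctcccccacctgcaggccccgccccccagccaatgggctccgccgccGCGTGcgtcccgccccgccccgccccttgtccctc
*Vegfa*, chr17:46032378-46032627, minus strand: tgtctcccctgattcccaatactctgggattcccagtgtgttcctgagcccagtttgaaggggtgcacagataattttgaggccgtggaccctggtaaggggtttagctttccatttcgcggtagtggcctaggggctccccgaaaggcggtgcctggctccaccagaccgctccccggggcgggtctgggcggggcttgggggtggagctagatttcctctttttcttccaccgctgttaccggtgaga
The motif was found at 2 places in the promoter of *Pgk1*, 3 in that of *Ldha* and 4 in that of *Bnip3*. It was in 28 of the 34 member promoters with an entry (82.4%), in 57.9% of 9235 promoters of genes that passed the filter on low values and in 38.6% of all 27025 promoter entries. The 250 bases of *Vegfa* held none. Sequence farther from the start was not searched, so a motif there would be missed. More than 1 place was found in 50% of the member promoters and in 24.8% of those of genes that passed the filter. By role it was in 9 of 10 promoters of hypoxia response genes and in 10 of 15 of enzymes. Genes of unlike course could hold the same number. *P4ha1* and *P4ha2*, which climbed in every series, and *Pfkp*, which was lower on day 7 than on day 4, held 3 places each. A match of these letters does not show a bound site. In 27 of the 34 entries the bases after the start matched the opening stretch of a GENCODE transcript of the gene. The entry of *Ldha* precedes a RefSeq start that lies inside the gene as placed above, and that of *Bnip3* overlaps the start of the annotated gene (chr7:138890836-138909519). *Slc2a3* and *Ndrg1* had no promoter entry.

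The second comparison asks whether depletion of *Smarcc1* or *Smarca4* changed the genes, averaged over days 4 to 7. Few members passed the test. With *Smarcc1* knockdown 1 of 36 was lower and 0 higher, against 3.08% lower and 7.54% higher over all genes (10.6% called). With *Smarca4* knockdown 1 was lower and 1 higher, against 1.96% and 4.75% (6.71% called). Both contrasts use the same 4 Nons libraries. The median log2 change of the members was -0.25 and -0.10, and that of all genes 0.06 in both.

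Markers of cell state moved in the same contrasts. Of 7 pluripotency markers, 5 were higher with *Smarcc1* knockdown and 3 with *Smarca4* knockdown (all genes: 7.54% and 4.75% higher). *Nanog* (log2 changes 1.09 and 0.84) and *Esrrb* (1.84 and 1.24) were among them, while *Pou5f1* (0.05 and -0.51) was not called in either. The sum of the 7 was 653 to 2799 rpm in Nons, 1064 to 3599 rpm with *Smarcc1* knockdown and 952 to 3150.2 rpm with *Smarca4* knockdown. *Fgf5* (-1.31 and -1.10) and *Otx2* (-0.45 and -0.60), 2 of 4 epiblast markers, were lower in both. *Dnmt3b* (0.09 and 0.18) and *Pou3f1* (-0.41 and 0.01) were not called. *Sox1*, 1 of 3 neural markers, was higher in both (2.40 and 2.33), as was *Gata4*, the 1 endoderm marker tested (1.14 and 0.89). The neural markers *Pax6* (0.26 and 0.30) and *Nes* (-0.45 and -0.39) were not called. The fibroblast marker *Dcn* was lower in both (-2.95 and -2.37), at a median of 0.957 rpm and with no read in 1 library. *Col1a1* (1.32) and *Pecam1* (1.69), the 1 endothelium marker tested, were higher with *Smarcc1* knockdown. The fibroblast markers *Col1a2* (1.02 and -0.83) and *Thy1* (-0.11 and -0.49) were not called. The part of these markers in the differences of members from Nons was not tested.

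**Figure D5:**
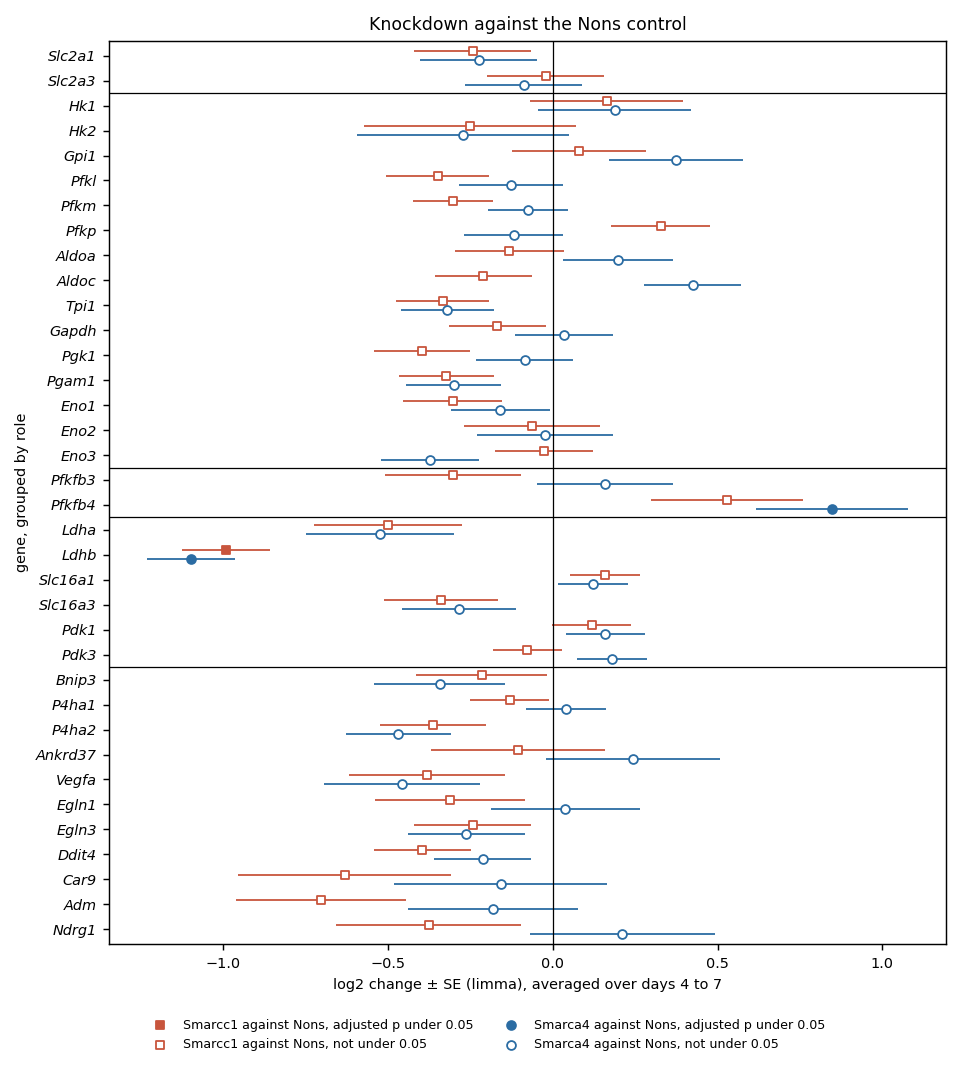
Log2 change ± SE of each member in *Smarcc1* knockdown (squares) and *Smarca4* knockdown (circles) against Nons, from limma, averaged over days 4 to 7. Filled symbols have an adjusted p under 0.05. *Ldhb* is filled in both near -1, *Pfkfb4* is filled for *Smarca4* at 0.85, and the other symbols are open.

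*Ldhb*, the subunit of lactate dehydrogenase that dominates in oxidative tissues such as heart (chr6:142490249-142507957), was the member called in both knockdowns. In Nons it was at 105, 151, 199 and 156 rpm on days 4 to 7. Smarcc1.6 had 71.2, 97.5, 74.6 and 54.3 rpm and Smarcc1.7 had 80.2, 96.9, 79.0 and 57.2 rpm. Smarca4.4 had 56.7, 82.9, 68.5 and 54.3 rpm and Smarca4.6 had 66.4, 121, 92.9 and 42.7 rpm. All 16 knockdown libraries lay below Nons of the same day, at 34.8 to 76.5% of it with *Smarcc1* knockdown and 27.3 to 79.9% with *Smarca4* knockdown. On each day the groups did not overlap. The log2 change was -0.99 ± 0.13 (SE, adjusted p = 0.000463, limma) with *Smarcc1* knockdown and -1.10 ± 0.13 (SE, adjusted p = 0.000525) with *Smarca4* knockdown. Over the 16 alternative settings of each contrast the call was kept, with changes from -1.17 to -0.83 and from -1.26 to -0.90 and adjusted p up to 0.0266 and 0.0363. Every setting kept the same Nons hairpin as reference, so a property of its libraries and an effect of the knockdowns cannot be told apart. The knockdowns did not differ from each other in *Ldhb* (log2 difference 0.10, adjusted p = 0.743). All 8 libraries below Nons of their day were found for 2 members with *Smarcc1* knockdown, *Pfkm* and *Ldhb*, and 3 with *Smarca4* knockdown, *Ldha*, *Ldhb* and *Vegfa* (5.17% and 4.48% of all genes). No member had all 8 *Smarcc1* libraries above Nons (8.69% of all genes). The other members in these sets were not called.

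Its partner *Ldha* was lower in 7 of 8 libraries with *Smarcc1* knockdown (47.8 to 104% of Nons) and in 8 of 8 with *Smarca4* knockdown (35.1 to 92.8%). The log2 changes of -0.50 ± 0.22 (SE, adjusted p = 0.208, limma) and -0.52 ± 0.22 (SE, adjusted p = 0.217) did not pass. *Ldhb* made up 3.72 to 9.07% of the lactate dehydrogenase level per kilobase in Nons, 2.44 to 7.10% in *Smarcc1* knockdown and 2.49 to 7.2% in *Smarca4* knockdown. On days 6 and 7 the Nons share was above those of all 4 knockdown libraries of the day, as the plot of isoform shares shows.

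*Pfkfb4* was the member called higher, in *Smarca4* knockdown alone, and it is expressed at a few rpm. In Nons it was at 2.33, 1.32, 1.40 and 2.24 rpm on days 4 to 7. Smarca4.4 had 2.43, 2.93, 3.74 and 6.13 rpm and Smarca4.6 had 2.53, 2.51, 2.16 and 4.56 rpm, all 8 above Nons of their day, at 104 to 274% of it, a pattern found for 9.85% of all genes. The log2 change was 0.85 ± 0.23 (SE, adjusted p = 0.0463, limma). It was called in 3 of 15 alternative settings, and lost when any hairpin or any single day was left out, with adjusted p from 0.0622 to 0.393 in those settings. It was also lost with the 4 days of a hairpin as a replicate block (adjusted p = 0.246). With *Smarcc1* knockdown 6 of 8 libraries were above Nons (log2 change 0.53 ± 0.23, SE, adjusted p = 0.191), and the difference between the knockdowns was not called (-0.32, adjusted p = 0.459).

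Between the knockdowns 1 member differed, *Aldoc* (all genes: 4.09% called, 1.54% lower and 2.55% higher with *Smarcc1* knockdown). It was lower with *Smarcc1* than with *Smarca4* knockdown (log2 difference -0.63 ± 0.12, SE, adjusted p = 0.0113, limma). The *Smarcc1* libraries had 6.12 and 5.80 rpm on day 4 against 8.41 and 9.06 in the *Smarca4* libraries, 24.8 and 30.1 against 43.0 and 69.2 on day 5, 62.1 and 49.6 against 73.1 and 85.5 on day 6, and 54.6 and 47.8 against 81.2 and 62.3 on day 7. The groups did not overlap on any day. Nons lay between them on days 4 and 5, and neither knockdown was called against it (log2 changes -0.21, adjusted p = 0.447, and 0.42, adjusted p = 0.12), although without the library of Smarca4.4 on day 5, the smallest, the second was called (0.51, adjusted p = 0.0288). The call was lost when any 1 hairpin was left out, without day 4, without day 7 and with the replicate block, which takes the libraries of 1 hairpin as related.

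The hypoxia response genes gave values below 0 in all 11 members with *Smarcc1* knockdown (log2 changes -0.70 to -0.10) and in 7 of 11 with *Smarca4* knockdown (-0.47 to 0.24), none of them called. The median of all genes was 0.06 in both contrasts. All these values share the same Nons libraries, so their signs are not separate observations. The lowest was *Adm* with *Smarcc1* knockdown (-0.70 ± 0.26, SE, adjusted p = 0.115, limma). *Vegfa* had -0.38 and -0.46 (adjusted p = 0.38 and 0.318), and without Smarcc1.7 the first became -0.71 and was called (adjusted p = 0.0252). *P4ha2* had -0.36 and -0.47 (adjusted p = 0.198 and 0.113), and the second was called after centring (-0.54, adjusted p = 0.0328), after quantile normalization (-0.53, adjusted p = 0.0413) and without day 5 (-0.64, adjusted p = 0.0257).

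These differences from Nons were uneven over the days. On day 4, 18 of 36 members were below Nons in all 4 knockdown libraries and 1 was above, against 24.6% and 31.3% of all genes. On day 7 these counts were 19 and 2, against 21.2% and 37.6%. On day 5 they were 2 and 3 (10.4% and 15.1% of all genes) and on day 6 they were 4 and 8 (16% and 28.8%). The median over the 11 hypoxia response genes of the mean difference from Nons was -0.51 on the log2 scale on day 4, -0.05 on day 5, -0.08 on day 6 and -0.51 on day 7, when that of all genes was 0.02, 0.05, 0.11 and 0.09. Each of these counts sets 4 libraries against a single Nons library, so a property of that library and an effect of the knockdowns cannot be told apart, and no test was made.

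On day 4 the members with the lowest values were *Adm* (10.2 rpm in Nons and 2.56 to 8.29 in the knockdown libraries), *Car9* (1.06 and 0.319 to 1.04), *P4ha2* (13.4 and 5.89 to 7.97), *Ndrg1* (27.2 and 8.76 to 26.1) and *Slc16a3* (656 and 341 to 429). For *Car9* and *Ndrg1* the highest knockdown library nearly reached Nons. On day 7 the Nons library had the highest *Slc2a3*, *Vegfa*, *P4ha1*, *P4ha2*, *Egln1* and *Car9* of all libraries. Among the libraries of day 7 it also had the lowest sum of the 7 pluripotency markers, 653 rpm against 952 to 1331 in the knockdown libraries, whose part in the result was not tested. On that day Smarca4.4 lay above Smarca4.6 in 32 of 36 members and Smarcc1.6 above Smarcc1.7 in 31 of 36, against 52.1% and 54.4% of all genes, so the hairpins of 1 target were also apart.

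The third comparison asks whether the linear slope over days differed between a knockdown and Nons. No member was called for a different slope, with 0 of 36 in *Smarcc1* knockdown and 0 of 36 in *Smarca4* knockdown. Over all genes limma called 0.94% (0.865% higher and 0.0752% lower) and 0.135% (0.113% higher and 0.0226% lower). At an unadjusted p under 0.05 there were 2 and 3 members, against 1279 and 692 of all 13296 genes. With limma-voom on the recovered reads, 0 members were called in both. The slopes differed from that of Nons by -0.38 to 0.52 and by -0.59 to 0.34 log2 units per day. A slope hardly registers a difference that is alike on the first and the last day. The hypoxia response genes had such a difference, with a median of -0.51 against Nons on day 4 and on day 7. Differences in course other than a slope were not tested.

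In the further lists, no regulator of HIF was called in either knockdown (15 tested, with 10.6% and 6.71% of all genes called). Among the 20 other glycolysis and pyruvate genes, *Pdha1*, the E1 alpha subunit of pyruvate dehydrogenase, was lower in both (log2 changes -0.42 ± 0.11, adjusted p = 0.0268, and -0.74 ± 0.11, SE, adjusted p = 0.00162, limma). With *Smarcc1* knockdown the liver-type pyruvate kinase *Pklr* (1.52), the muscle-type mutase *Pgam2* (0.87) and the pyruvate carrier subunit *Mpc1*, listed as *Brp44l* (1.00), were higher, each at under 10 rpm in every library. Among 28 other HIF targets, *Hmox1*, the heme oxygenase, was higher in both (0.57 and 0.63, adjusted p = 0.00646 and 0.00635) and *Igfbp3*, a binding protein of insulin-like growth factors, lower in both (-0.84 and -0.51, adjusted p = 0.000814 and 0.0261). *Stc1*, the hormone stanniocalcin, was lower with *Smarca4* knockdown (-1.23 ± 0.29, SE, adjusted p = 0.0242). *Angptl4*, a regulator of lipoprotein lipase, was called between the knockdowns (log2 changes against Nons 0.49 and -0.24, neither of them called).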

How the data were processed

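RNA-seq was made from 20 libraries of differentiating mESCs. The authors trimmed the reads, used tophat or HISAT2 for alignment to the mm10 build and quantified genes in SeqMonk, and the deposited values are log2 rpm, reads scaled to the size of the library. The version of HISAT2, the annotation release and the use of strand are not given in the sources used here. The lowest value of each library, worth 0.9 read, gave the library totals, from 6829596 to 27472885 reads, which set the counting precision of low genes. The samples titled Nons2 had no values in the expression table used here and were not analysed. The genotype label names Smarcc knockdown for the *Smarca4* libraries too, and the titles were followed.

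The 13296 entries whose log2 rpm averaged 0 or more were fitted with limma 3.58.1 (lmFit and eBayes with trend, R 4.3.3), with a mean for each of 3 groups on each day. The 8 residual degrees of freedom came from the hairpin pairs, and Nons, with 1 library a day, was assumed to vary like them. Changes are differences of log2 rpm. Benjamini-Hochberg adjustment was over all 13296, with a threshold of 0.05. The fit was also run on simulated reads, drawn separately for each library with no difference between hairpins. That run does not cover related libraries of 1 hairpin. Values per kilobase used the longest protein-coding GENCODE transcript. Alternatives changed the filter, the pseudocount (1 rpm), the scaling, the test (limma-voom on recovered reads), the block and the libraries. Their counts of members are given without the share of all genes in the same fit. They do not show whether members depended on the setting more than other genes did. All 36 members were named in the order of their roles, and the members and lists were chosen with earlier results of these data known.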

Additional observations from a re-analysis of the deposited data

Results flagged for a closer look

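*Aldoc* was flagged because its level differed between the knockdowns in the test of that difference. The log2 difference of *Smarcc1* against *Smarca4* knockdown was -0.63 (adjusted p = 0.0113, limma), with the 2 *Smarcc1* libraries below the 2 *Smarca4* libraries on all 4 days. The call was lost with the replicate block, when any 1 hairpin was left out, and without day 4 or day 7. Groups held at most 2 libraries a day, so single libraries could not be tested as outliers within a group.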

How the results depend on the processing

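The fall of *Ldhb* in both knockdowns was called in all 16 alternatives of each contrast, all of which kept the Nons hairpin as reference. With *Smarcc1* knockdown 1 member was called, 1 to 2 when a hairpin or library was left out. With *Smarca4* knockdown the count of 2 became 1 when the minimum was raised to log2(10), without a filter on low values, with the replicate block and without day 4, day 6 or day 7, and was 1 to 2 in the leave-one-out fits. It was 3 after centring on the median gene (1 higher and 2 lower), and 2 with quantile normalization and without day 5, both lower, so that *Pfkfb4* was not among them. Between the knockdowns the count of 1 became 0 with the replicate block and without day 4 or day 7, and 2 after centring on the median gene and without day 5, with 0 to 2 in the leave-one-out fits. Leaving out a hairpin or library gave 6 to 9 members from day 5 to day 6 (10 with all libraries) and 5 to 18 from day 6 to day 7 (18 with all libraries). The slopes gave 0 members in every alternative that could be run.

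Changes of sign occurred in members whose main log2 change was at most 0.27 in size, none of them called. For *Smarcc1* knockdown they were *Slc2a3* (quantile normalization 0.12, without day 7 0.13, leave-one-out -0.17 to 0.12), *Hk1* (leave-one-out -0.11 to 0.44), *Hk2* (leave-one-out -0.54 to 0.042), *Gpi1* (without day 6 -0.082, leave-one-out -0.14 to 0.30), *Eno2* (without day 7 0.12, leave-one-out -0.15 to 0.026), *Eno3* (without day 6 0.092, without day 7 0.025, leave-one-out -0.15 to 0.10), *Bnip3* (leave-one-out -0.45 to 0.021) and *Ankrd37* (without day 4 0.26, leave-one-out -0.41 to 0.20). For *Smarca4* knockdown they were *Slc2a3* (without day 7 0.10), *Hk2* (leave-one-out -0.62 to 0.078), *Pfkm* (without day 7 0.10), *Pfkp* (without day 7 0.034), *Gapdh* (centred -0.041, without day 5 -0.022, leave-one-out -0.10 to 0.17), *Eno2* (without day 6 0.023, without day 7 0.35), *Pfkfb3* (without day 6 -0.10, leave-one-out -0.060 to 0.38), *P4ha1* (centred -0.035, without day 6 -0.042, leave-one-out -0.014 to 0.093), *Ankrd37* (without day 5 -0.024) and *Egln1* (centred -0.036, quantile normalization -0.0082, without day 5 -0.12, without day 6 -0.059, leave-one-out -0.089 to 0.17). From day 4 to day 7 they were *Gapdh* (centred -0.14, leave-one-out -0.044 to 0.11), *Eno1* (centred -0.13, quantile normalization -0.14, knockdown libraries alone -0.035, leave-one-out -0.077 to 0.17), *Ldhb* (leave-one-out -0.17 to 0.023) and *Slc16a1* (centred -0.17, leave-one-out -0.049 to 0.055). The cause was not tested.

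The replicate block took the 4 days of 1 hairpin as related (correlation 0.217) and called 31 members from day 4 to day 7. Differences between hairpins correlated across genes at 0.02 to 0.82 between days for *Smarcc1* and at -0.21 to 0.37 for *Smarca4*. Among days 5, 6 and 7 the *Smarcc1* values were 0.82, 0.44 and 0.58. Libraries of 1 *Smarcc1* hairpin on these days were thus related, while the main fit takes them as independent. The numbers were read as hairpin names and not as pairs. The fit on the knockdown libraries alone was chosen after seeing the data. *Car9*, *Eno2* and *Pfkfb4* rest on few reads, which limits the precision of their changes.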
